A study of Mus musculus with 34 samples.

Results

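PPARγ is a nuclear receptor that binds DNA as a heterodimer with RXR and switches on genes of fatty acid uptake, oxidation and storage. In macrophages most of its binding is known to lie at enhancers opened by PU.1, the pioneer factor of the myeloid lineage, together with AP-1 and C/EBP proteins, whereas its own recognition element is the DR1, a pair of AGGTCA hexamers in the same direction with 1 base between them. The sites described here are those PPARγ peaks at which neither of these partners was called. They were chosen by measured values, namely the absence of any overlap of 1 bp or more with a PU.1 or AP-1 peak of wild-type cells, and they number 6471 of the 31089 PPARγ peaks (20.8%).

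ChIP-seq, which sequences the DNA pulled down with an antibody to a bound protein, was performed in thioglycollate-elicited macrophages, cells recruited to the peritoneum by an irritant. They came from male C57BL/6 and BALB/cJ mice, both 8 weeks old per the methods, and from male PPARgKO mice on the C57BL/6 background, whose age is not given in the sources used here, and were treated with vehicle (Veh) or with Kdo2 lipid A (KLA), a TLR4 agonist, at 100 ng/mL for 1 h. The groups used were PPARγ Veh, the 12 AP-1 lists (ATF3, Jun, JunD, Fos, Fra2 and JunB, Veh and KLA), the 2 PU.1 lists and the CEBPa Veh and KLA lists of C57BL/6; ATF3, Jun and JunD Veh of PPARgKO; and the AP-1 lists of BALB/cJ. How PPARgKO mice were made (promoter or Cre) is not given in the sources used here, no PPARγ list of these mice was analysed here, and the PPARγ label names 3 antibodies. Each condition is 1 list of peaks that passed the authors' reproducibility filter, so no value below has a replicate check, and intervals over peaks cover counting error only, since peaks of 1 list are not replicates. As a check of the labelled cell type, all 8 macrophage marker genes had a PU.1 Veh peak within 1 kb of a transcription start site (TSS) and 7 had a PPARγ peak, against 0 and 1 of 5 T cell markers, 0 and 2 of 4 B cell markers, 1 and 2 of 5 neutrophil markers and 1 and 1 of 5 adipocyte markers.

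The DNA at these sites held the PPARγ element more often than the remaining PPARγ peaks did, and so it did a pattern of the CTCF core. The first set of sequences shows the 5 strongest sites whose central 200 bp carry a DR1 with at most 1 mismatch in its 12 fixed letters, followed by the strongest pair of promoter sites with 2 mismatches. Each is 60 bases of GRCm38 (mm10), read 5′ to 3′ on the strand of the match, with the DR1 in capitals.

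Tnrc6b, at -6771 bp from its TSS, intergenic, chr15:80704567-80704626, minus strand: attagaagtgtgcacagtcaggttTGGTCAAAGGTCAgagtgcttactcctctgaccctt

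Nr2c1 promoter, chr10:94148218-94148277, minus strand: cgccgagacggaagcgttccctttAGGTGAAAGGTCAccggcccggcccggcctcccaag

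Bcap31 intron, chrX:73714385-73714444, plus strand: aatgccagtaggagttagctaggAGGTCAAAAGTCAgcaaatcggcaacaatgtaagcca

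Pam16 promoter, chr16:4624902-4624961, plus strand: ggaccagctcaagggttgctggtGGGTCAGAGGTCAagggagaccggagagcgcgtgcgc

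Esrra promoter, chr19:6921294-6921353, minus strand: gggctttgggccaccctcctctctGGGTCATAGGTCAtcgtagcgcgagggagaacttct

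Etfa promoter, chr9:55512285-55512344, plus strand: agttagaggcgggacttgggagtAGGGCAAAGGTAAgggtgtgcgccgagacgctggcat

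Aldh9a1 promoter, chr1:167349824-167349883, plus strand: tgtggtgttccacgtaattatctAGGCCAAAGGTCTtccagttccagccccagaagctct

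The 5 sites with at most 1 mismatch had PPARγ read counts of 218 (Tnrc6b, a factor of miRNA-mediated silencing), 159 (Nr2c1, an orphan nuclear receptor), 159 (Bcap31, an endoplasmic reticulum chaperone), 143 (Pam16, a subunit of the mitochondrial import motor) and 127 (Esrra, the nuclear receptor ERRα, a regulator of mitochondrial genes). None of the 5 overlapped an AP-1 peak of PPARgKO or a CEBPa peak, and the Bcap31 site alone overlapped a BALB/cJ Veh peak (JunD).

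The second set shows the 4 strongest sites with the core pattern of CTCF, the zinc finger protein of chromatin loop anchors, searched as CCNNNAGNNGGC on both strands and shown in capitals. This pattern was picked out for display after its share was seen, and no CTCF list was analysed here.

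Gm47259, at -13322 bp from its TSS, intergenic, chr13:30085163-30085222, minus strand: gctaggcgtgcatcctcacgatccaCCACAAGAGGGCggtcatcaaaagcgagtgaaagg

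Nearest to Apoc2, chr7:19669620-19669679, minus strand: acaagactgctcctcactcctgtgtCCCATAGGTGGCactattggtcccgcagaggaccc

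1700064M15Rik promoter, chr12:99628038-99628097, plus strand: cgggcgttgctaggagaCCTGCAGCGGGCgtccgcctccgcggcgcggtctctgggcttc

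Nearest to Taf15, chr11:83473033-83473092, plus strand: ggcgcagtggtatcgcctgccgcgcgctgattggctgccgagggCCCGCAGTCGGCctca

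Among the 6408 sites on assembled chromosomes, 600 (9.36%; 95% Wilson interval 8.67 to 10.1) held a DR1 with at most 2 mismatches in the central 200 bp, against 1473 of 24611 remaining PPARγ peaks (5.99%), a difference of 3.38 percentage points (95% Newcombe interval 2.63 to 4.17). The difference had the same direction with at most 1 mismatch, at 2.59% against 1.17% (1.42 points, 1.04 to 1.86), and for the exact element, at 0.421% (27 sites) against 0.154% (38 peaks). It was seen against each class of remaining peak: the share was 6.65% at peaks with PU.1 and no AP-1, 7.34% at peaks with AP-1 and no PU.1 and 5.31% at peaks with both, and the 3 differences had intervals of 1.60 to 3.78, 1.04 to 3.00 and 3.27 to 4.87 points. Of 200-bp windows placed every 50 kb along the genome 2.23% held such a DR1, and of those centred on TSSs of protein-coding genes 2.03% did. A match is a description of letters and not a measured contact.

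The share of sites with the CTCF pattern was 18.6% (1193 of 6408; 17.7 to 19.6), against 7.19% of the remaining PPARγ peaks, a difference of 11.4 points (10.4 to 12.5). Over 1 kb from any TSS it was 21.5% (881 of 4092) against 5.98%, and within 1 kb it was 13.5% against 9.71%. Peaks with PU.1 and no AP-1 stood between, at 12.1%, while those with AP-1 and no PU.1 (7.89%) or with both (5.76%) were lowest. The pattern occurred in 2.13% of windows every 50 kb and 7.11% of TSS windows. GC content had a median of 51% at the sites and 50.5% at the remaining peaks, and of 49% in both over 1 kb from a TSS. Both patterns were held by 71 sites (1.11%), of 600 with the DR1 and 1193 with the CTCF pattern. Patterns this infrequent would share few sites even if unrelated, and their overlap was not tested. Sites with a DR1 had a median PPARγ count of 28, those with the CTCF pattern 21 and those with neither 21.

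The motifs of the absent partners were less frequent in the same windows than at the remaining peaks, which the choice of members partly fixes and which is therefore not tested. All motifs were searched on both strands. The PU.1 letters ACTTCCT occurred at 7.62% of sites and 22.4% of remaining peaks (4.68% of windows every 50 kb and 6.54% of TSS windows), and the AP-1 letters TGACTCA at 5.17% and 18.6% (3.03% and 2.79% of the same windows). At the sites both were thus above either set of windows. The PU.1 letters were at 6.11% of peaks with AP-1 and no PU.1, 28.3% with PU.1 and no AP-1 and 27.2% with both. The AP-1 letters were at 25.2%, 1.68% and 20.0% of the same classes. The C/EBP pattern TTGCNNAA occurred at 11.2% and 15.6% (9.69% and 5.70%). The AGGTCA hexamer alone occurred at 19.9% and 18.7% (11% and 9.16%), a difference of 1.27 points that became 4.25 when the remaining peaks were weighted to the counts of the sites. The order by class was mixed. The share was 21.3% at peaks with AP-1 and no PU.1, 15.4% with PU.1 and no AP-1 and 18.4% with both. The promoter letters occurred at similar shares in both sets before weighting, CCAAT at 24% and 23.0% (29.3% and 28.1%), CACGTG at 5.96% and 6.40% (1.89% and 5.67%), CCCCGCCC at 6.62% and 6.47% (0.514% and 18.5%) and GCGCNTGCGC at 2.36% and 1.97% (0.0491% and 5.25%). The ETS letters ACTTCCG were less frequent at the sites, at 2.59% against 5.48% (0.383% and 7.04%). This was not particular to the sites. The share was 2.66% at peaks with AP-1 and no PU.1, 9.26% with PU.1 and no AP-1 and 5.67% with both. Sequence that was mostly masked as repeat made up 5.65% of the sites and 2.90% of remaining peaks, or 4.27% of these when weighted to the counts of the sites. Of windows every 50 kb 30.4% were mostly repeat, and of TSS windows 3.62%.

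**Figure D1:**
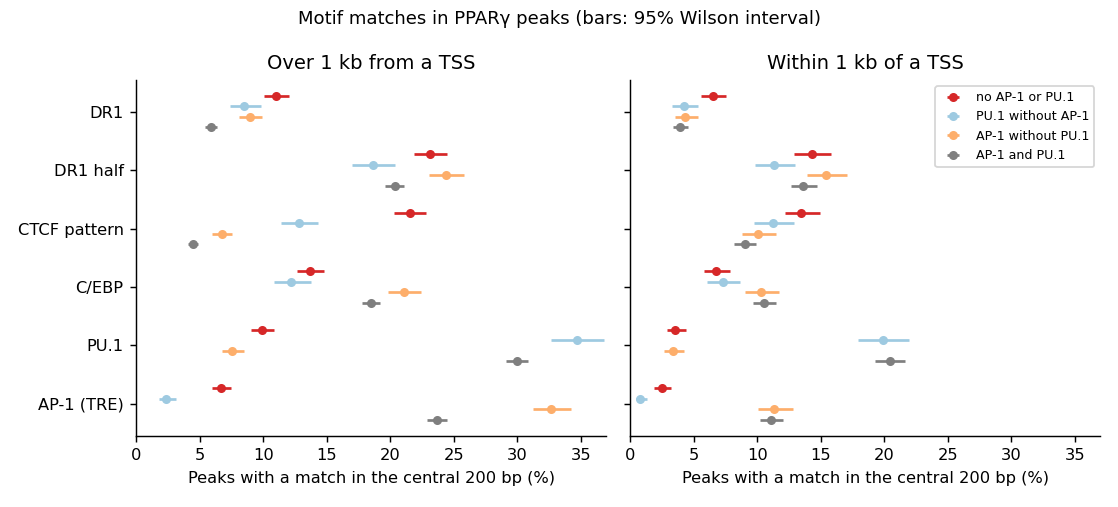
Share of PPARγ peaks with a motif match in the central 200 bp (x axis, percent), for peaks over 1 kb from a TSS (left) and within 1 kb (right), in 4 classes of PPARγ peak; points are shares and bars 95% Wilson intervals. At distal peaks the sites without AP-1 or PU.1 (red) had the highest DR1 share (11%) and the highest CTCF pattern share (21.5%) of the 4 classes.

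The sites were weaker than the rest of the list by read count, though they included some of its strongest peaks. Their counts had a median of 22 (quartiles 16 and 31, range 12 to 551), against a median of 40 (27 and 66, 12 to 565) at the remaining peaks. The median site stood at percentile 22.5 of the whole list. Of the sites 33.2% had the top reproducibility score of 1000 and the median score was 846, against 73.8% and a median of 1000 at the remaining peaks. In the 10 bins of equal size by count, the sites made up 59.5% of the weakest bin (counts 12 to 17), 15.5% of the 5th and 4.18% of the strongest (100 to 565). Only 2 sites were among the 100 highest counts and 22 among the 1000 highest. At the edge of the rule, 137 sites lay 1 to 50 bp from the nearest excluding peak and had a median count of 26, while 132 peaks left out for an overlap of 1 to 50 bp had a median of 25.5. The median distance from a site to the nearest excluding peak was 2424 bp.

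**Figure D2:**
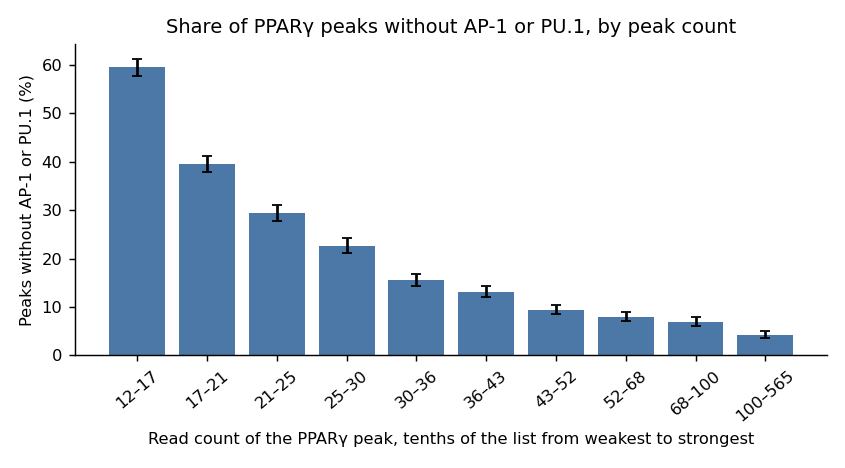
Share of PPARγ peaks without AP-1 or PU.1 (y axis, percent, with 95% Wilson intervals) in 10 bins of equal size by PPARγ read count (x axis, lowest to highest count of each bin). The share falls in every step, from 59.5% in the weakest bin to 4.18% in the strongest.

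Of the 10 strongest sites on assembled chromosomes, 6 were promoters of protein-coding genes, among them genes of mitochondria and fatty acid oxidation. The highest count, 551, lay at the TSS of Mlst8 (chr17:24478936-24479137), a subunit shared by the mTOR complexes, and was the 5th highest of all PPARγ peaks. The promoter of Etfa (chr9:55512205-55512414), the electron transfer flavoprotein subunit that takes electrons from acyl-CoA dehydrogenases, followed at 442 and lay 116260 bp from the nearest excluding peak. The promoter of Acadl (chr1:66862723-66862932), the long-chain acyl-CoA dehydrogenase, had 258. An intron of Abcd2 (chr15:91179999-91180225), a peroxisomal transporter of very long chain fatty acids, had 251. The promoter of Aldh9a1 (chr1:167349755-167349955), an enzyme of carnitine synthesis, had 250, and that of Iba57 (chr11:59163780-59163985), a mitochondrial iron-sulfur assembly factor, had 234. The others of the 10 highest were the promoter of the kinase gene Mink1 (241) and intergenic sites nearest to Gm47259 (296), A430110L20Rik (222) and Tnrc6b (218). Further promoters among the 10 highest with a protein-coding gene were those of Arhgap23 (207), Lmbr1 (206), Adcy10, the soluble adenylyl cyclase (184), and Mtor, the kinase to which Mlst8 binds (176).

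Promoters made up a larger share of these sites than of the remaining PPARγ peaks, by an amount that depended on the settings. The centre lay within 1 kb of a TSS at 2316 sites (35.8%; 34.6 to 37), against 32.3% of remaining peaks, a difference of 3.49 points (2.19 to 4.80). Introns held 32.4% against 37.1%, intergenic sequence 26.0% against 27.2% and exons 4.76% against 3.39%. The order against the separate classes was mixed: the share was 43.3% at peaks with PU.1 and no AP-1, 34.8% at peaks with AP-1 and no PU.1 and 28.8% at peaks with both. Of the promoter sites 44.5% lay within 100 bp of the TSS, against 51.7% of remaining promoter peaks and 43.3% of these when weighted to the counts of the sites, so the direction turned with the weighting. When a peak within 500 bp was enough to exclude a site, the promoter difference turned to -1.43 points (-2.82 to -0.0219), so its direction rests on the overlap rule. Weighting the remaining peaks to the counts of the sites gave 7.10 points, a reproducibility score of 830 or more 9.07, the upper 50% of peaks by count 10.3 and a promoter window of 500 bp 1.39. Among promoter sites the nearest TSS belonged to a protein-coding gene at 1992 (86.0%), a lincRNA at 93 and an antisense transcript at 88.

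Within the sites, the promoter share rose with PPARγ count, from 24.6% in the lowest of 4 equal bins (counts 12 to 16) to 43.6% in the highest (31 to 551). The DR1 share was 5.89%, 6.36%, 8.77% and 16.5% in the same order, so the DR1 was most frequent in the strongest bin. The CTCF pattern did not rise in this way, at 16.0%, 21.4%, 20.7% and 16.4%. The repeat share fell from 8.62% to 4.01%. The order over bins is given as a description.

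**Figure D3:**
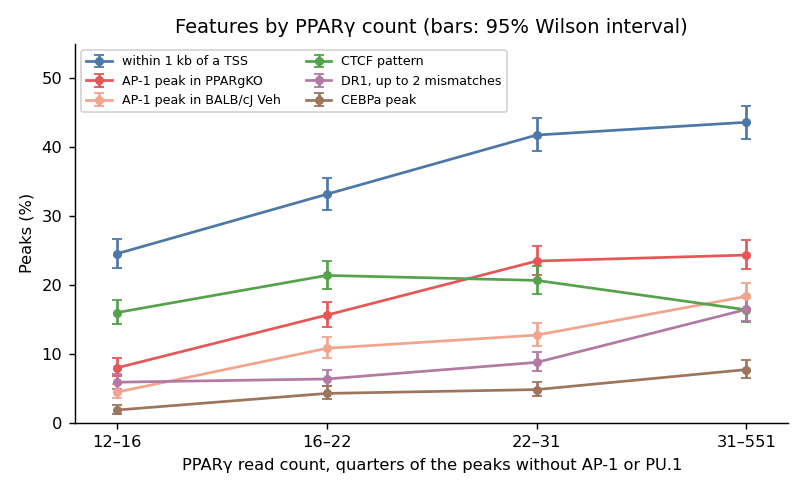
Share of the sites with each feature (y axis, percent, with 95% Wilson intervals) in 4 bins of equal size by PPARγ read count (x axis). Promoter location rises from 24.6% to 43.6% and the DR1 from 5.89% to 16.5%, while the CTCF pattern is 16.0% in the lowest bin and 16.4% in the highest.

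A protein-coding gene had a site within 1 kb of a TSS in 2152 of 22028 cases (9.77%), and another PPARγ peak there in 29.6% of cases. For 1450 genes the site was the only PPARγ peak within that distance. Of 41 genes of the PPAR lipid programme, 10 (24.4%) had a site and 7 of these had no other PPARγ peak, and 22 had another PPARγ peak. The counts at these genes were 258 at Acadl and 120 at Acadvl, the long-chain and very-long-chain acyl-CoA dehydrogenases, 110 at Eci2, an isomerase of unsaturated fatty acid oxidation, 45 and 17 at Cpt1a, the carnitine palmitoyltransferase that admits fatty acids to mitochondria, 39 at the fatty acid carrier Fabp5, 38 at the triglyceride lipase Pnpla2, 31 at the promoter that Hadha and Hadhb share (both subunits of the mitochondrial trifunctional protein), 25 at the glycerol kinase gene Gk and 13 at the mitochondrial carrier Ucp2. The counts at lipid genes thus ran from 13 to 258. Of these 10 sites, 1 (Cpt1a, count 45) held a DR1 with at most 2 mismatches in its central 200 bp. Of all sites on assembled chromosomes 9.36% did, so the lipid genes did not stand apart in this. Genes best known as targets in fat cells and foam cells, such as Fabp4, Cd36, Lpl, Abca1 and Plin2, were not among those with a site within 1 kb of a TSS. This does not mean that PPARγ was absent from them, since other or more distant PPARγ peaks are not counted as such.

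Respiratory chain subunits had a site at 15 of 84 genes (17.9%), with the highest count, 129, at the promoter shared by Ndufs6 and Mrpl36 and the next, 80, at Ndufa11. Mitochondrial ribosomal proteins had one at 14 of 75 (18.7%), peroxins at 3 of 17 (17.6%, the highest 73 at Pex16), cytosolic ribosomal proteins at 11 of 80 (13.8%, the highest 73 at Rpl19) and proteasome subunits at 3 of 39 (7.69%). Genes named Zfp had one at 49 of 394 (12.4%), led by Zfp689 at 139, and histone genes at 17 of 67 (25.4%), where neighbouring genes can share a site. Other PPARγ peaks lay at more of the genes of these lists than the sites did, beside 29.6% of all protein-coding genes. The shares were 57.1% for the respiratory chain, 64% for mitochondrial ribosomal proteins, 58.8% for peroxins, 75% for cytosolic ribosomal proteins and 84.6% for proteasome subunits. Genes named Zfp (35.8%) and histone genes (31.3%) were near the share of all genes. Of the 19 genes for PPAR and RXR receptors and coregulators, 4 had a site: Ncoa2, a coactivator, at 57, Pparg itself at 25, Ncor1, a corepressor, at 24 and 14, and Rxrb at 18. All 4 also had another PPARγ peak at a TSS. Among 14 alternative activation genes the sites were at Irf4 (25), Il4ra (19) and Stat6 (17), and among 20 inflammatory response genes 1 had a site, the cytokine signalling inhibitor Socs3 (20). Shares with a site were 21.1% for receptors and coregulators, 21.4% for alternative activation and 5.0% for inflammatory response, against 9.77% of all protein-coding genes. Another PPARγ peak lay at 42.1%, 35.7% and 60.0% of them in the same order. These lists are short, and differences between them were not tested. The macrophage markers had 1 of 8 (Mertk, 40), the B cell markers 1 of 4 (Cd79a, 21), and the T cell, neutrophil and adipocyte markers 0 of 5 each.

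CEBPa, a C/EBP protein that marks macrophage enhancers and was not part of the rule, was seldom found at these sites. In Veh it overlapped 250 sites (3.86%; 3.42 to 4.36), against 28.6% of remaining PPARγ peaks and 23.5% of all PPARγ peaks. After KLA it overlapped 166 (2.57%), against 30.3% and 24.5%. Either list reached 302 sites (4.67%), 31.9 points below the remaining peaks (-32.7 to -31.1), and weighting those to the counts of the sites left -21.5 points. The scarcity was not particular to the sites: at PPARγ peaks with PU.1 and no AP-1 the share was 6.85%, with a difference of -2.18 points (-3.18 to -1.23), while it was 34.4% at peaks with AP-1 and no PU.1 and 44.4% at peaks with both.

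**Figure D4:**
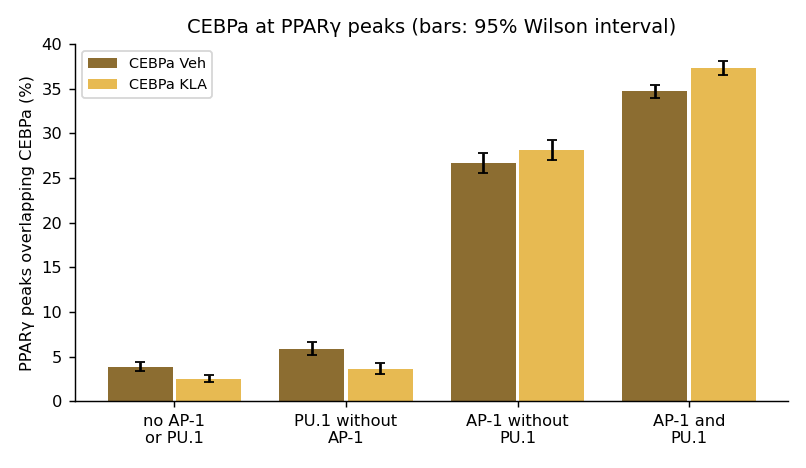
Share of PPARγ peaks that overlap a CEBPa peak by 1 bp or more (y axis, percent, with 95% Wilson intervals) in 4 classes of PPARγ peak, for the CEBPa Veh and KLA lists. Sites without AP-1 or PU.1 stand at 3.86% and 2.57%, peaks with PU.1 alone at 5.87% and 3.59%, and peaks with AP-1 and no PU.1 at 26.7% and 28.1%.

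CEBPa overlapped 114 sites (1.76%) in both treatments, and the 5 with the highest PPARγ counts were as follows. At Abcd2 (PPARγ count 251) the CEBPa peaks had counts of 156 in Veh and 67 after KLA. At the Adcy10 promoter (184) they had 72 and 32. In an intron of Acsl1 (chr8:46485074-46485307), the long-chain acyl-CoA synthetase, where PPARγ had 161, they had 144 and 45. In an intron of Abcc5 (132), an organic anion exporter, they had 75 and 56, and in an intron of Mrps28 (chr3:8873083-8873296, PPARγ count 113) 59 and 33. The KLA count was the lower of the pair at all 5, and since the counts are not scaled to library size this order says nothing of the treatment.

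In the PPARgKO, AP-1 peaks appeared at a minority of these sites. ATF3 overlapped 570 sites (8.81%, against 50.9% of all PPARγ peaks), Jun 38 (0.587%, against 11.2%) and JunD 760 (11.7%, against 38.4%), and any of the 3 lists reached 1156 (17.9%; 17.0 to 18.8, against 60.0%). JunD alone accounted for 570 sites, ATF3 alone for 381 and Jun alone for 8, and 15 had all 3 monomers. In BALB/cJ Veh, mice with intact PPARγ whose lists were not used to choose the sites either, ATF3 overlapped 180 (2.78%, against 36.7%), Jun 46 (0.711%, against 24.6%) and JunD 645 (9.97%, against 50.0%), and any of the 3 reached 750 (11.6%; 10.8 to 12.4, against 55.4%). AP-1 was therefore called in both kinds of mice at sites where the wild-type lists had none, at 278 sites in both, at 878 in PPARgKO alone and at 472 in BALB/cJ alone. AP-1 in PPARgKO and not in BALB/cJ was at 13.6% of the sites and 15.3% of remaining PPARγ peaks (-1.73 points, -2.66 to -0.761). AP-1 in BALB/cJ and not in PPARgKO was at 7.29% and 11.1%. Weighted to the counts of the sites, the remaining peaks had 18.3% and 11.7%. These shares, and those of all PPARγ peaks above, are not like for like, since most remaining peaks already had a wild-type AP-1 peak. PPARγ peaks with PU.1 and no AP-1 lacked one too. Of these, 21.8% had AP-1 in PPARgKO and not in BALB/cJ, and 14.1% the reverse. Any of the 3 PPARgKO lists reached 31.9% of them (ATF3 17.0%, Jun 0.253%, JunD 20.6%), and any of the 3 BALB/cJ Veh lists 24.2%.

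Most of these AP-1 peaks were weak. The PPARgKO peaks at the sites had median counts of 17 (ATF3), 15 (Jun) and 23 (JunD), at percentiles 15.4, 24.8 and 24.5 of their lists, and the BALB/cJ peaks there had 20, 19 and 25, at percentiles 12.7, 12.2 and 19.8. When only the upper 50% of each PPARgKO list by count was kept, 82 sites (1.27%) had an AP-1 peak. The PPARgKO lists reached down to counts of 11 (ATF3), 11 (Jun) and 13 (JunD), and the wild-type Veh lists that excluded the sites to 25, 11 and 27 in the same order. Since these counts are not scaled to library size, a peak newly formed in PPARgKO and a weak peak that missed the wild-type list cannot be told apart.

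The length of the lists moved the comparison between PPARgKO and BALB/cJ. On assembled chromosomes ATF3 overlapped 543 sites in PPARgKO and 180 in BALB/cJ, but the PPARgKO list is the longer (28318 against 19506 peaks), and cut by count to the same length it overlapped 87. The order was then the opposite. For JunD the lists overlapped 723 and 645 sites, the BALB/cJ list being the longer (28652 against 19355), and at equal length the BALB/cJ list overlapped 141. Jun overlapped 14 and 46 sites, and 14 and 3 at the length of the PPARgKO list, 4290 peaks. No monomer thus gave an order that held under both lengths except JunD, which was higher in PPARgKO in both.

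**Figure D5:**
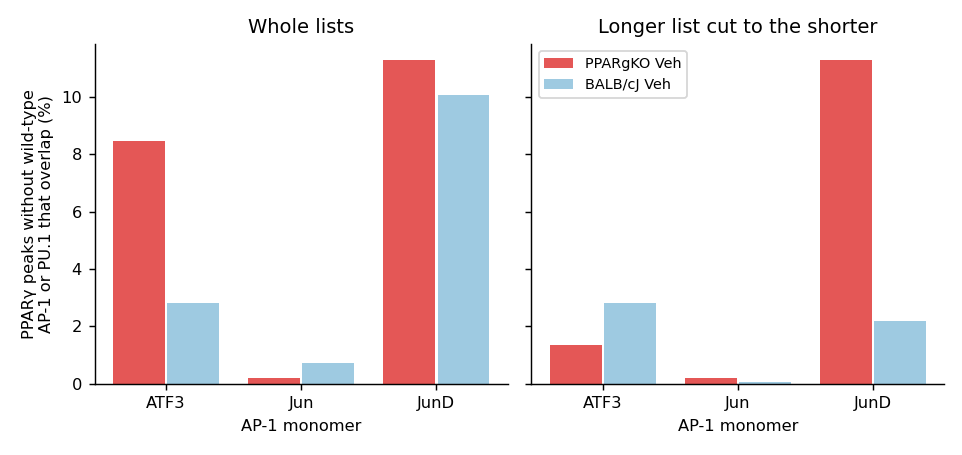
Share of the 6408 sites on assembled chromosomes that overlap an AP-1 peak of PPARgKO Veh (red) or BALB/cJ Veh (blue), in percent, for whole lists (left) and with the longer list of each monomer cut by count to the length of the shorter (right). The ATF3 order turns from 8.47% against 2.81% to 1.36% against 2.81%, while JunD is higher in PPARgKO in both panels.

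The sites with an AP-1 peak in PPARgKO were more often promoters, at 50.1% against 32.7% of the sites without one, and more often overlapped CEBPa (8.82% against 3.76%). They held a DR1 less often, at 5.58% against 10.2%, and the CTCF pattern (18.5% and 18.7%) and the AP-1 letters TGACTCA (4.86% and 5.23%) about equally. Their median PPARγ count was 26 against 21, and their median distance to the nearest wild-type AP-1 or PU.1 peak was 2532.5 bp against 2398 bp. By PPARγ count the highest of them were the Mlst8 promoter (ATF3 count 12), the Abcd2 intron (ATF3 14, with a BALB/cJ JunD peak of 39), the Arhgap23 promoter (ATF3 19), a site on an unplaced contig, and the 1700064M15Rik promoter (JunD 20, with a BALB/cJ JunD peak of 30).

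Sites off the assembled chromosomes differed from the rest. They numbered 63 (0.974%), on 9 contigs, out of 70 PPARγ peaks there, and 51 lay on the unplaced contig chrUn_JH584304, where PPARγ had 54 peaks. They were not weaker than the other sites, with counts from 12 to 200 and a median of 26. Of the 63, 45 had an AP-1 peak in PPARgKO (ATF3 27, Jun 24, JunD 37), and 13 of the 15 sites with all 3 monomers were among them. On the contig chrUn_GL456392 a PPARγ peak of 200 met PPARgKO peaks of 143 (ATF3), 128 (Jun, the highest count of that list) and 157 (JunD). On chrUn_JH584304 the PPARgKO lists had 35, 40 and 52 peaks, whereas the 12 AP-1 and 2 PU.1 lists of C57BL/6 that excluded the sites had 0 to 3 each and the BALB/cJ lists 0. BALB/cJ reads were mapped to a strain genome, and whether it held these contigs is not given in the sources used here. Within the C57BL/6 background, contig peaks thus moved with the PPARγ and PPARgKO lists whatever the antibody. The part of the libraries in this was not tested. Without the contigs, AP-1 in PPARgKO was at 1111 of 6408 sites (17.3%), Jun at 14 and all 3 monomers at 2.

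Chromosome X held a larger share of such sites than the autosomes. Of its 530 PPARγ peaks 180 (34.0%; 30.1 to 38.1) were without AP-1 or PU.1, against 20.4% of autosomal peaks, where single chromosomes ranged from 17.5% (chromosome 1) to 22.5% (chromosome 9). The difference was 13.5 points (9.61 to 17.7). All X peaks were weaker (median count 27 against 36) and the X sites were not (23 against 21). The X difference was not weighted by count. Of the X sites 55.6% were promoters, against 35.6% of autosomal ones. The promoter share of all X peaks was not taken, so this cannot be called a trait of the X sites. The PPARγ list had 1.70% of its peaks on X and the PU.1 Veh list 1.72%, the 12 AP-1 lists of C57BL/6 had 0.432% to 1.61%, the highest being ATF3 KLA, and the BALB/cJ ATF3, Jun and JunD Veh lists had 1.55%, 1.29% and 1.93%.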

How the data were processed

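The authors mapped reads to mm10 with Bowtie2 (BALB/cJ reads to a strain genome, with positions shifted to mm10), used HOMER with the matching input to find peaks, and kept peaks with an irreproducible discovery rate under 0.05 over replicate experiments (IDR program 2.0.3). The deposited files hold, for each of 30 lists, peak positions, a whole-number read count per peak that is not scaled to library size, and a scaled reproducibility score. Summed counts over peaks ranged from 203 to 13809100 among lists with peaks; sequencing depth itself is not given in the sources used here. The BALB/cJ Fos Veh list was empty, and 4 input samples have no list here.

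Overlaps of 1 bp, distances to TSSs (GENCODE vM21) and central 200-bp sequences (RefSeq GRCm38) were computed in Python 3 with numpy and pandas; shares carry 95% Wilson intervals, differences Newcombe intervals, and no p-value was computed, since each condition is 1 list. Code was tested on simulated data. Members, gene lists and tests were chosen with earlier results of these data known. Sites were named by fixed rules: the 10 highest counts; the 10 highest at protein-coding promoters; up to 30 at listed genes by count; and the 5 highest with PPARgKO AP-1, with CEBPa in both treatments, or with a DR1 of at most 1 mismatch. The weaker sites at list genes, the CTCF pattern, the X chromosome and clusters were picked out after values were seen. Alternatives changed the overlap, lists, thresholds, windows and motif stringency.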

Additional observations from a re-analysis of the deposited data

Results flagged for a closer look

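The KLA-treated BALB/cJ lists took no part in choosing the sites or in the comparisons, and they held AP-1 peaks at some of them. The counts are given as values, since any overlap lies above 0 and the sites were chosen for lacking C57BL/6 KLA peaks of the same factors. ATF3 overlapped 335 sites (5.18%, against 63.5% of the remaining PPARγ peaks), Jun 43 (0.665%, against 27.4%), JunD 498 (7.70%, against 61.0%), Fos 436 (6.74%, against 67.0%) and JunB 57 (0.881%, against 42.6%). Any of these lists reached 923 sites (14.3%, against 78.3%). Most remaining peaks had a C57BL/6 AP-1 peak, so the contrast is partly fixed by the rule. At PPARγ peaks with PU.1 and no AP-1, which lacked one too, any of these lists reached 27.4%. By factor the shares there were 8.78% (ATF3), 0.926% (Jun), 16.6% (JunD), 13.2% (Fos) and 1.57% (JunB).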

How the results depend on the processing

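Of 77 alternatives over the results, 56 kept the direction and the side of the threshold or, for a value with no test, stayed within its margin, 18 moved a count, share or median by more than its margin, 2 took a difference to an interval that reached 0 and 1 reversed a difference. The number of sites, 6471, fell to 3371 at a reproducibility score of 830 or more and to 1294 in the upper 50% of PPARγ peaks by count, where sites off the assembled chromosomes numbered 18 (63 in all) and PPAR lipid genes with a site 6 (10 in all). With any peak within 500 bp excluding, the promoter difference reversed to -1.43 points, and the GC difference stayed at 0.5 points with an interval that included 0; over 1 kb from a TSS the GC difference was 0.0. AP-1 in PPARgKO, 17.9% of sites, was 22.6% with Veh lists only excluding, 23.7% at a score of 830 or more, 23.9% in the upper 50% by count, 14.5% with centres within 100 bp, 15.4% with 50% reciprocal overlap, 1.27% with the upper 50% of each PPARgKO list and 12.7% with those lists cut to the BALB/cJ length. AP-1 in BALB/cJ Veh, 11.6%, was 17.0%, 15.4%, 18.5%, 9.30% and 9.64% under the first 5 of these and 4.34% with its lists cut to the PPARgKO length. The median count of the sites, 22, was 23 with Veh lists only. The causes were not tested, beyond fewer peaks in the stricter lists. The DR1 difference (0.267 to 10.8 points), the CTCF pattern difference (8.54 to 15.5), the CEBPa difference (-37.6 to -21.5) and the X difference (12.7 to 18.3) kept their direction under every alternative tried for them; those for the CTCF pattern, the X chromosome, list lengths and contigs were chosen after seeing the data. No paired analysis was possible because each condition is 1 list and the labels carry no replicate numbers.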

Other observations

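Some sites lay in runs along the genome. Counting runs of 4 or more sites with centres at most 10 kb apart, a rule chosen after values were seen, gave 27 runs with 128 sites on the assembled chromosomes and 2 on an unplaced contig, with 45 and 6 sites. The longest on the assembled chromosomes, 13 sites at chr19:5800029-5841230, lay around Neat1, a long non-coding RNA of nuclear paraspeckles; its highest count was 94 and 6 of its sites had an AP-1 peak in PPARgKO. Further runs lay at Spi1, which encodes PU.1 itself (5 sites, highest count 92), and at the immune receptor gene Cd300a (6 sites, 136). Others lay at Gpnmb, a transmembrane glycoprotein of lysosome-rich macrophages (6 sites, 28), and at the lysosomal genes Psap (5 sites, 40) and Ctsb (4 sites, 53). Ucp2 (5 sites, 57) and Adipor2, an adiponectin receptor (4 sites, 57), also had runs. These were named by gene and by no fixed rule, so they do not show which kinds of gene have runs. Runs of 5 sites lay also nearest to Mgat4b (highest count 26), Syf2 (31), Arhgap25 (59) and Abhd12 (67). Neighbouring sites in a run are not independent, and how many runs sites placed at random would form was not tested.

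Of the 6471 sites, 4395 (67.9%) had no AP-1 peak in any PPARgKO or BALB/cJ list, KLA included.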
